A study of Mus musculus with 12 samples.

Results

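The genes described here build and control the mitotic spindle. They are 58 genes given by name for their function, which cover the spindle checkpoint, the mitotic kinases, the kinetochore, the mitotic kinesins, spindle assembly, cytokinesis and anaphase. All 58 were found among the 19937 genes of the array, 1 of them, listed under its older symbol Sgol1, as Sgo1. Of these genes, 2 (Kif14 and Top2a) had 2 probe sets, and the brighter one was used. No measured value entered the rule that lists them, but the genes were chosen with earlier results of these data known.

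Total RNA of mouse spleen cells (strain C57Bl/6 x FVB) was hybridised to 12 Affymetrix arrays, 3 for each of 4 groups. The labels call these activated B cells, resting B cells, activated T cells and resting T cells. Activated cells were taken on day 4 of culture and resting cells on day 0, straight from the spleen. The B cells were selected as CD43-negative and activated on plates coated with αCD40 in the presence of IL-4. The T cells were selected as B220-negative, and for their activation the labels list aCD3, aCD28 and IL2, while the study's methods give αCD3. No group carried a genetic change. Magnetic selection of resting B cells, as the methods give it, also removed cells bearing TER-119, Gr-1, CD11b, CD138 or CD5, which are erythroid, granulocytic and other myeloid cells, plasma cells and T cells. The sources read here do not tell whether replicate arrays stand for different mice (the supplementary methods were not used here), and the p-values measure only the spread between these samples, which may be technical.

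Defining markers of the labelled cell types were lower where the label calls for them than where it does not. The T cell gene Cd3e averaged 10.07 and 10.61 log2 in labelled activated and resting B arrays, against 6.43 and 5.93 log2 in labelled activated and resting T arrays. The B cell gene Cd79a averaged 4.50 and 8.27 log2 in labelled activated and resting B arrays, against 11.64 and 10.45 log2 in labelled activated and resting T arrays. The labelled resting B arrays held both kinds of marker, with medians of 10.23 to 10.41 log2 over 8 T cell markers and 7.15 to 8.33 log2 over 7 B cell markers. Groups are therefore called by their labels throughout. Whether arrays carry the label of another group cannot be told from the labels, so every signed difference below is one between labels. If labels were exchanged, the sign of a difference could change, depending on which labels, and so could the size of the interaction.

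During mitosis, microtubules from the spindle poles attach to kinetochores, the protein plates that form on the centromeric chromatin of each chromosome. Unattached kinetochores switch on the spindle checkpoint, which holds back the anaphase-promoting complex until all chromosomes are attached. That complex then marks securin and cyclin B for destruction, separase cuts cohesin, and the central spindle directs the cleavage furrow. Most genes of this machinery are transcribed in a wave late in the cell cycle. Resting lymphocytes in the spleen are mostly out of the cycle, and they enter it after stimulation in culture.

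Values below are log2 RMA expression, in which 1 unit is a 2-fold difference. RMA combines the probes of a set into 1 value after bringing all arrays to the same distribution. A level of 5.21 log2, the 95th percentile of 1027 olfactory receptor genes, is used as background. Where arrays of the lower group lie under it, a log2 difference is the fitted one and rests on levels that were not measured, and a fold is given as a lower bound with those arrays set to that level. Arrays hold no read counts, and their precision is limited by the 3 arrays per group. Levels of different genes come from different probes and are not set against each other.

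Nearly the whole set was high in the same 6 arrays. In 57 of the 58 genes, all 6 arrays labelled activated B and resting T lay above all 6 arrays labelled resting B and activated T, and the exception was Pttg1. The median over the 58 genes was 8.82, 8.74 and 8.71 log2 in the labelled activated B arrays, against 5.27, 5.28 and 5.52 log2 in the labelled resting B arrays. It was 5.30, 5.25 and 5.58 log2 in the labelled activated T arrays, against 8.17, 8.27 and 8.17 log2 in the labelled resting T arrays. The set was thus higher with the label activated in the labelled B arrays and lower with it in the labelled T arrays. In these bulk samples, fewer dividing cells and less RNA per cell cannot be told apart.

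**Figure D1:**
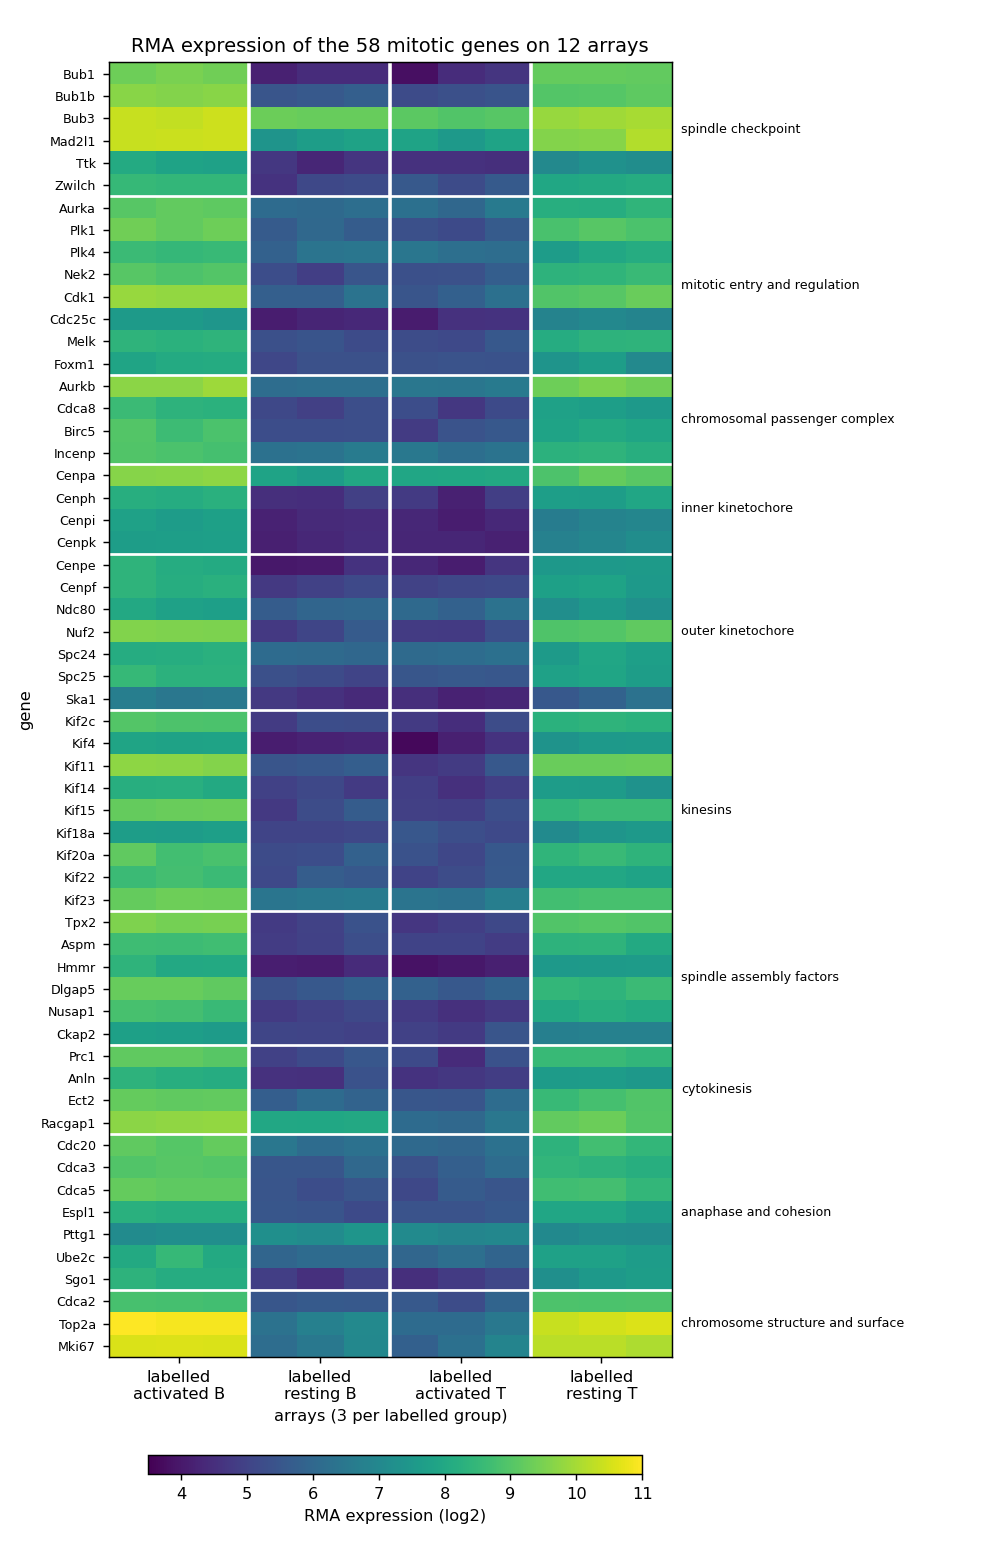
Heat map of log2 RMA expression of the 58 genes (rows, ordered by function) on the 12 arrays (columns, 3 per labelled group, in replicate order within a group). The labelled activated B and resting T columns are lighter than the other columns in every row except that of Pttg1. Colours of different rows come from different probes and are not comparable as levels.

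The comparisons were made with limma over all genes (adjusted p under 0.05, Benjamini-Hochberg). Between labelled activated and resting B arrays, 57 of 58 genes were higher and 0 lower, where 19.7% of all 19937 genes were called higher and 16.7% lower. The median difference of the 58 genes was 3.36 log2, against -0.02 over all genes. All labelled activated B arrays lay above all labelled resting B arrays in 57 of the 58 genes, where 23.9% of all genes did so and 22.6% did the opposite. The difference was at least 1 log2 in 57 genes and at least 3 log2 in 40. Of the 100 genes with the largest positive difference on the array, 35 belonged to the set.

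Between labelled activated and resting T arrays, 57 of 58 genes were lower and 0 higher, where 17.8% of all genes were called lower and 15.9% higher. The median difference was -2.72 log2, against 0.02 over all genes. All labelled activated T arrays lay below all labelled resting T arrays in 57 of 58 genes, where 21.1% of all genes did so and 21.2% did the opposite. A difference of -1 log2 or beyond was seen in 56 genes and of -3 log2 or beyond in 22. Here 27 of the 100 genes with the largest negative difference belonged to the set.

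The difference between the labels activated and resting was of opposite sign for the labelled B and the labelled T arrays, and that contrast was itself tested. The interaction (activated minus resting, labelled B minus labelled T) was positive in 57 of 58 genes by the same threshold, where 21.9% of all genes were called positive and 20.9% negative. Its median was 6.07 log2, and among the called genes it lay between 1.97 log2 for Bub3 and 9.95 log2 for Bub1. The 6 low arrays of Bub1 lay under background, so the size of its difference was not measured. Of the 100 genes with the largest fitted positive interaction, 37 were of the set.

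Genes that differed much in the labelled B arrays also differed much in the labelled T arrays. Across the 58 genes, the differences of these comparisons, which share no array, had a Pearson r of -0.91 and a Spearman rho of -0.9. Without Pttg1 the values were -0.9 and -0.89 over 57 genes. Both comparisons read the same probes, and genes of 1 set are not independent, so this describes the set only. The difference was larger in size in the labelled B arrays for 52 genes, and in the labelled T arrays for Cdca2, Kif11, Plk1, Pttg1, Racgap1 and Top2a.

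The pairs of groups with the same activation label gave the same division. Between labelled activated B and activated T arrays, 57 genes were higher and 0 lower (21.8% and 18.9% of all genes), with a median of 3.40 log2, and the arrays did not overlap in 58 genes that were higher (25.5% of all genes higher and 25.6% lower). Between labelled resting B and resting T arrays, 57 were lower and 0 higher (19% and 16.1% of all genes), with a median of -2.72 log2, and the arrays did not overlap in 57 genes that were lower (22.9% of all genes lower and 19.7% higher). These comparisons use the same arrays as those of activated against resting and are no further evidence for them.

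Several marker lists differed along with the set. The counts below may be read beside the shares of all genes called. These were 19.7% higher and 16.7% lower in labelled activated minus resting B arrays, and 15.9% and 17.8% in labelled activated minus resting T arrays. Of 7 B cell markers, 7 were lower in labelled activated than in resting B arrays, and of 8 T cell markers 1 was higher and 4 were lower. Natural killer markers were lower in 4 of 4 and myeloid markers in 5 of 6. Between labelled activated and resting T arrays, 6 of 7 B cell markers and 3 of 8 T cell markers were higher and 0 of each lower. Of 5 plasma cell markers, 3 were higher and 1 lower in the labelled B comparison, and 4 were lower and 0 higher in the labelled T comparison. Their medians were 7.65 to 8.23 and 6.36 to 6.87 log2 in labelled activated and resting B arrays, and 5.88 to 6.04 and 7.44 to 9.11 log2 in labelled activated and resting T arrays. Irf4, a factor that activated lymphocytes express too, was higher by 3.004 log2 and Jchain, of secreted antibodies, lower by 6.67 log2 in labelled activated than in resting B arrays. The median over the natural killer markers was 4.74 to 5.22 log2 in labelled activated B arrays, against 6.92 to 7.82 log2 in labelled resting B arrays. It was 5.37 to 6.13 log2 in labelled activated T arrays, against 4.53 to 4.95 log2 in labelled resting T arrays. Myeloid markers had medians of 4.53 to 4.63 and 7.05 to 7.54 log2 in labelled activated and resting B arrays, and of 6.44 to 6.71 and 5.35 to 5.45 log2 in labelled activated and resting T arrays. The part of these cells in the results was not tested. Erythroid markers, of cells that the selection with TER-119 would remove from resting B cells, had medians of 5.63 to 5.76 and 5.70 to 5.90 log2 in labelled activated and resting B arrays, and of 5.44 to 5.56 and 5.31 to 5.56 log2 in labelled activated and resting T arrays. Of the 6 erythroid markers, 0 were higher and 1 lower in labelled activated than in resting B arrays, and 1 was higher and 0 lower in the labelled T comparison. Between labelled resting B and resting T arrays, 4 were higher and 0 lower, where 16.1% of all genes were called higher and 19% lower. The red cell transcription factor Klf1 was below 5.21 log2 in all 12 arrays, while the medians over the 6 markers lay above that level in all 12.

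Promoters of late cell cycle genes often hold a cell cycle homology region, whose core is TTTGAA or TTCGAA, and CCAAT boxes, the sites of the factor NF-Y. Since the members differed together, their promoter windows in RefSeq (GRCm38.p6, 250 bases before to 50 after the gene start) were searched for these letters on both strands. On the other strand the core TTTGAA reads as TTCAAA, the core TTCGAA is its own reverse complement, and the box CCAAT is read there as ATTGG. A core and a box can share no more than 1 end letter. A window was found for 47 of the 58 genes. Of these, 34 (72.3%) held TTTGAA or TTCGAA, against 21.7% of the 27025 genes with a window. CCAAT was found in 34 (72.3%), against 41.1% of all genes. Both motifs stood in the same window in 29 genes (61.7%), against 8.61% of all genes. In 17 genes (36.2%), against 1.25%, a CCAAT began 20 to 45 bases before a TTTGAA or TTCGAA, a spacing chosen after the windows had been seen. A match of letters is a description and not a bound site.

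The windows of 9 genes are shown from 100 bases before to 25 after the start, 5′ to 3′ on the coding strand, with the searched letters in capitals. Cdk1, Cdc20, Ube2c, Prc1, Top2a and Kif11 show the arrangement of CCAAT upstream of the core near the start. Bub1 had the largest fitted interaction of the set, Racgap1 the largest difference between the low groups, and Pttg1, whose shown bases hold neither motif, did not follow the set. The windows of Mad2l1, Plk4, Birc5, Nuf2, Kif18a, Melk and Nusap1 held neither motif as well, and these genes all followed the set.
Cdk1 (chr10:69352888-69353012, minus strand): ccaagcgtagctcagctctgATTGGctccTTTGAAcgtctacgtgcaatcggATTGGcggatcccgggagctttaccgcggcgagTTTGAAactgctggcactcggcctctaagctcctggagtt
Cdc20 (chr4:118437319-118437443, minus strand): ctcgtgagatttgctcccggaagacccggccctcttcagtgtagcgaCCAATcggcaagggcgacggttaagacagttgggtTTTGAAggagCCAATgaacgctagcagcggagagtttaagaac
Ube2c (chr2:164769829-164769953, plus strand): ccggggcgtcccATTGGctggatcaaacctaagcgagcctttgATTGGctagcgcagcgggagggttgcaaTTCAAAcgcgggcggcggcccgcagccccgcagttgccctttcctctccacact
Prc1 (chr7:80294351-80294475, plus strand): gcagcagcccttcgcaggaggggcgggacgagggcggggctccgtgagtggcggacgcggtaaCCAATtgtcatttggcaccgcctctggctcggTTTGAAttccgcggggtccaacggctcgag
Top2a (chr11:99024165-99024289, minus strand): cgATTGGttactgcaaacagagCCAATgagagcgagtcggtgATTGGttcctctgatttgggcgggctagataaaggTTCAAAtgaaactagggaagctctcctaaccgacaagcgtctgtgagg
Kif11 (chr19:37376282-37376406, plus strand): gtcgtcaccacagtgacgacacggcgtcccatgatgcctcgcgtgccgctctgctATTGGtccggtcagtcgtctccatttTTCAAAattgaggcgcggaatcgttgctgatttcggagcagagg
Bub1 (chr2:127831835-127831959, minus strand): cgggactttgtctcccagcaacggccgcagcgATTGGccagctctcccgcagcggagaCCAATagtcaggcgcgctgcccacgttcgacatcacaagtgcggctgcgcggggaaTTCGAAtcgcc
Racgap1 (chr15:99651632-99651756, minus strand): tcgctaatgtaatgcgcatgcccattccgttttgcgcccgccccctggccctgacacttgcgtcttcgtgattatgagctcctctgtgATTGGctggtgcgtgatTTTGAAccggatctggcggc
Pttg1 (chr11:43425957-43426081, minus strand): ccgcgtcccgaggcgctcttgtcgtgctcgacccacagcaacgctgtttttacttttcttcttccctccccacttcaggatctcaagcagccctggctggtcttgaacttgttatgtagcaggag

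Some genes have overlapping windows, and a site in several of them was counted once, at its nearest start. The 47 genes held 45 distinct sites of TTTGAA or TTCGAA, with a median position of -15 relative to the start. Of these, 32 (71.1%) began within 50 bases of it, against 25.3% of the 6954 sites of all genes. The 75 distinct sites of CCAAT had a median position of -65, and 29 (38.7%) began within 50 bases of the start, against 28.7% of 16788 sites of all genes. In labelled activated minus resting B arrays, the median was 3.33 log2 for the 34 genes with TTTGAA or TTCGAA and 3.37 log2 for the 13 without. In labelled activated minus resting T arrays, these medians were -2.81 and -2.70 log2.

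**Figure D2:**
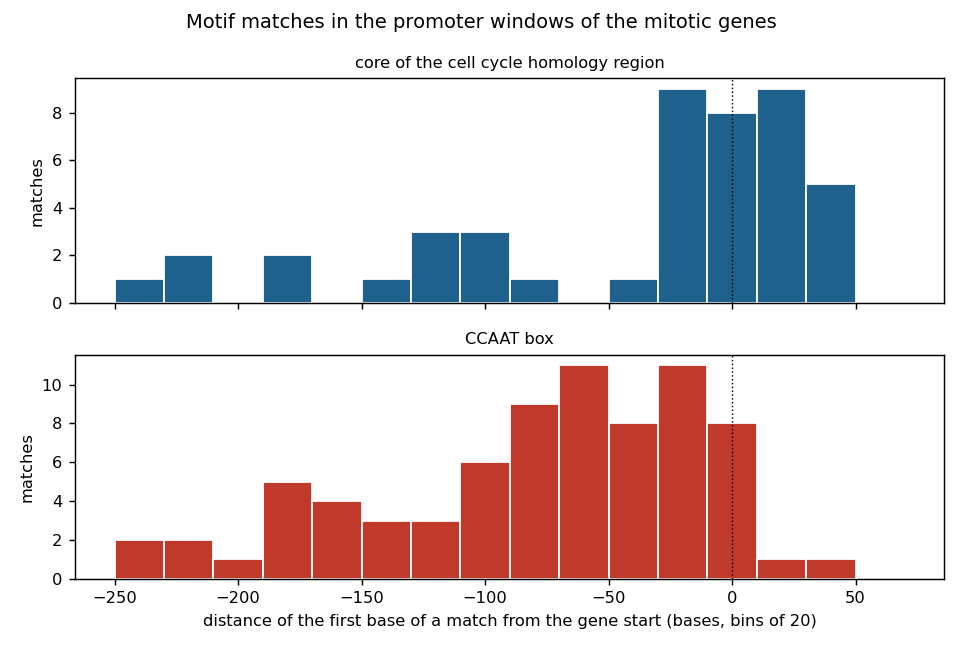
Number of distinct matches of TTTGAA or TTCGAA (upper panel) and CCAAT (lower panel), on either strand, by distance of the first base from the nearest gene start in bins of 20 bases, over the windows of 47 genes. Within 50 bases of the start lie 32 of the 45 matches of the core and 29 of the 75 of CCAAT, and the windows end 50 bases after it.

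Among the spindle checkpoint genes, 6 of 6 were higher in labelled activated than in resting B arrays (median 3.43 log2) and 6 of 6 were lower in labelled activated than in resting T arrays (median -2.60 log2). Bub1, the kinase that recruits checkpoint proteins to the kinetochore, was at 9.33, 9.49 and 9.38 log2 in labelled activated B arrays, against 4.20, 4.46 and 4.45 log2 in labelled resting B arrays. It was at 3.82, 4.45 and 4.66 log2 in labelled activated T arrays, against 9.23, 9.22 and 9.20 log2 in labelled resting T arrays. Its low values all lay under the background level of 5.21 log2, and the fitted differences were 5.03 ± 0.16 (SE, adjusted p = 4.96e-13) and -4.91 ± 0.16 log2 (adjusted p = 1.11e-12). Set against the background level, Bub1 was at least 18.3-fold higher in labelled activated than in resting B arrays and at least 16.1-fold lower in labelled activated than in resting T arrays.

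Bub3, which carries Bub1 and BubR1 to the kinetochore, changed least among the called genes. It was at 10.37, 10.32 and 10.42 log2 in labelled activated B arrays, against 9.32, 9.27 and 9.26 log2 in labelled resting B arrays. The labelled activated T arrays had 9.12, 8.97 and 9.06 log2, against 9.86, 9.93 and 10.03 log2 in labelled resting T arrays. Bub3 was thus well above background in all 12 arrays, and its differences were 1.09 ± 0.09 log2 (adjusted p = 2.59e-08) and -0.89 ± 0.09 log2 (adjusted p = 3.44e-07). Mad2l1, which binds Cdc20 and blocks it, was at 10.37, 10.41 and 10.43 log2 in labelled activated B arrays, against 7.38, 7.67 and 7.83 log2 in labelled resting B arrays. It was at 7.85, 7.54 and 7.85 log2 in labelled activated T arrays, against 9.60, 9.64 and 10.13 log2 in labelled resting T arrays. It also stayed above background throughout. Bub1b (BubR1, part of the inhibitor of the anaphase-promoting complex), Ttk (the kinase that starts the checkpoint) and Zwilch (a subunit of the complex that brings dynein to kinetochores) differed by 3.35 to 4.02 log2 in the labelled B comparison and by -3.72 to -2.58 log2 in the labelled T comparison.

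**Figure D3:**
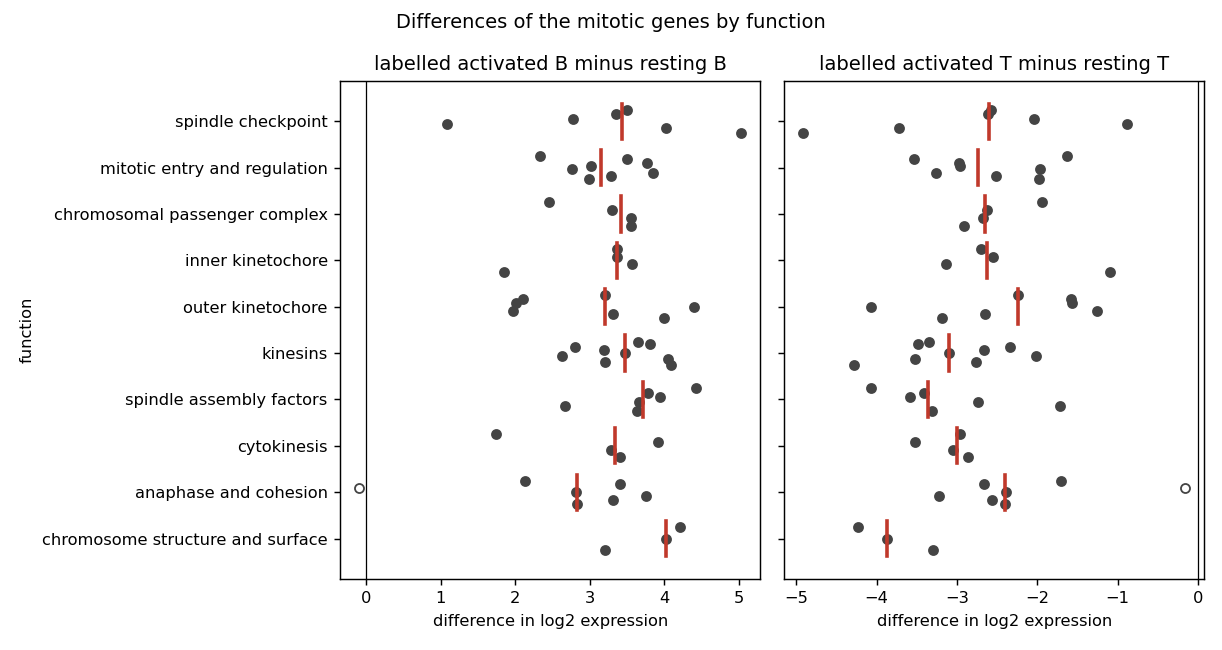
Differences in log2 expression of the 58 genes by function, for labelled activated minus resting B arrays (left) and labelled activated minus resting T arrays (right). Each point is a gene, filled where adjusted p was under 0.05 and open otherwise, and red bars are medians of the function. Every called gene lies to the right of 0 in the left panel and to the left of 0 in the right panel, and the open point is Pttg1 (-0.09 and -0.16 log2).

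The 8 regulators of mitotic entry were all higher in labelled activated than in resting B arrays (median 3.16 log2) and all lower in labelled activated than in resting T arrays (median -2.74 log2). Cdk1, the kinase that drives entry into mitosis, was at 9.84, 9.79 and 9.79 log2 in labelled activated B arrays, against 5.76, 5.77 and 6.35 log2 in labelled resting B arrays. It was at 5.49, 5.81 and 6.26 log2 in labelled activated T arrays, against 8.97, 9.07 and 9.29 log2 in labelled resting T arrays. Its differences of 3.85 ± 0.18 log2 (adjusted p = 3.12e-11) and -3.25 ± 0.18 log2 (adjusted p = 2.44e-10) were 14.4-fold and 9.54-fold. Plk1, a kinase with roles from centrosome maturation to cytokinesis, was at 9.38, 9.19 and 9.33 log2 in labelled activated B arrays, against 5.66, 6.04 and 5.68 log2 in labelled resting B arrays. The labelled activated T arrays had 5.34, 5.18 and 5.65 log2, against 8.85, 9.05 and 8.89 log2 in labelled resting T arrays. Plk4, the kinase of centriole duplication, differed least of the 8, by 2.33 and -1.64 log2. The transcription factor Foxm1, which drives many genes of this wave, differed by 2.76 and -1.97 log2. Cdc25c, the phosphatase that activates Cdk1, was under background in the 6 low arrays, at 4.09 to 4.37 log2 in labelled resting B and 4.06 to 4.61 log2 in labelled activated T arrays.

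The chromosomal passenger complex corrects wrong attachments of microtubules, and its 4 genes followed the set. Aurkb, its kinase, was at 9.70, 9.68 and 9.90 log2 in labelled activated B arrays, against 6.17, 6.24 and 6.23 log2 in labelled resting B arrays. It was at 6.48, 6.46 and 6.60 log2 in labelled activated T arrays, against 9.36, 9.52 and 9.39 log2 in labelled resting T arrays. Birc5 (survivin), Cdca8 (borealin) and the scaffold Incenp differed by 3.55, 3.30 and 2.45 log2 in the labelled B comparison and by -2.67, -2.62 and -1.94 log2 in the labelled T comparison.

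In the kinetochore, 11 of 11 genes followed the set, but by unequal amounts. Cenpa, the histone H3 variant that marks the centromere, was at 9.63, 9.66 and 9.73 log2 in labelled activated B arrays, against 7.84, 7.66 and 7.996 log2 in labelled resting B arrays. It was at 7.95, 7.97 and 8.03 log2 in labelled activated T arrays, against 8.91, 9.24 and 9.08 log2 in labelled resting T arrays. Its difference of 1.84 ± 0.11 log2 (adjusted p = 4.86e-10) in the labelled B comparison was the smallest of the 4 inner kinetochore genes. Cenph, Cenpi and Cenpk, which link centromeric chromatin to the outer kinetochore, differed by 3.37 to 3.56 log2 there and by -3.14 to -2.56 log2 in the labelled T comparison, and their low values all lay under background.

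The 4 subunits of the Ndc80 complex, which grips the microtubule, differed by unequal amounts as well. Nuf2 was at 9.58, 9.54 and 9.52 log2 in labelled activated B arrays, against 4.73, 5.06 and 5.65 log2 in labelled resting B arrays. It was at 4.80, 4.77 and 5.30 log2 in labelled activated T arrays, against 8.92, 8.98 and 9.18 log2 in labelled resting T arrays. Its difference in the labelled B comparison was 4.40 ± 0.18 log2 (adjusted p = 9.53e-12). Ndc80 itself, at 8.02, 7.79 and 7.74 log2 in labelled activated B arrays, against 5.70, 5.94 and 6.00 log2 in labelled resting B arrays, differed by 1.97 ± 0.13 log2 (adjusted p = 3.13e-09). Spc24 and Spc25 differed by 2.11 and 3.20 log2. These are differences of single probe sets, and subunits were not tested against each other. Cenpe, a kinesin that moves chromosomes to the spindle equator, differed by 3.99 log2, and Cenpf by 3.31 log2. The labelled resting B arrays of both lay under background, so these differences were at least 7.94-fold and 8.29-fold. Ska1, a subunit of the complex that follows shrinking microtubule ends, was at 6.47 to 6.70 log2 in labelled activated B and 5.57 to 6.33 log2 in labelled resting T arrays. Its fitted differences were 2.004 and -1.57 log2. Its low arrays all lay under background, so it was at least 2.57-fold higher in the labelled B and at least 1.63-fold lower in the labelled T comparison.

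The 9 mitotic kinesins were all higher in labelled activated than in resting B arrays (median 3.47 log2) and all lower in labelled activated than in resting T arrays (median -3.10 log2). Kif11, which pushes the spindle poles apart, was at 9.73, 9.70 and 9.62 log2 in labelled activated B arrays, against 5.46, 5.57 and 5.74 log2 in labelled resting B arrays. It was at 4.66, 4.82 and 5.58 log2 in labelled activated T arrays, against 9.29, 9.28 and 9.33 log2 in labelled resting T arrays. Its differences were 4.09 ± 0.17 log2 (adjusted p = 9.25e-12) and -4.28 ± 0.17 log2 (adjusted p = 7.13e-12). Kif18a, which damps chromosome movements at the equator, changed least, at 7.67, 7.65 and 7.74 log2 in labelled activated B arrays, against 5.03, 5.05 and 5.09 log2 in labelled resting B arrays. The other 7 were Kif2c (a microtubule depolymerase), Kif4 and Kif22 (chromosome arm motors), Kif15 (a second motor of the bipolar spindle), and Kif14, Kif20a and Kif23 (motors of the central spindle). They differed by 2.81 to 4.05 log2 in the labelled B comparison and by -3.52 to -2.33 log2 in the labelled T comparison. The second probe set of Kif14 was at 3.10 to 3.27 log2 in the means of all 4 groups, all under background.

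All 6 spindle assembly factors followed the set, with medians of 3.72 and -3.36 log2. Tpx2, the activator of Aurora A on spindle microtubules, was at 9.55, 9.43 and 9.47 log2 in labelled activated B arrays, against 4.78, 4.97 and 5.40 log2 in labelled resting B arrays. It was at 4.70, 4.90 and 5.14 log2 in labelled activated T arrays, against 8.96, 9.03 and 8.95 log2 in labelled resting T arrays. Its fitted differences were 4.43 ± 0.14 log2 (adjusted p = 4.83e-13) and -4.07 ± 0.14 log2 (adjusted p = 1.44e-12). Background was not reached on 2 of 3 labelled resting B and 3 of 3 labelled activated T arrays, so Tpx2 was at least 18.5-fold higher in labelled activated than in resting B and at least 13.7-fold lower in labelled activated than in resting T arrays. Aspm (a spindle pole protein), Hmmr, Dlgap5 and Nusap1 (proteins that stabilise or bundle spindle microtubules) differed by 3.64 to 3.94 log2 and by -3.58 to -2.74 log2. Ckap2 differed least, by 2.67 and -1.72 log2.

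All 4 cytokinesis genes were higher in labelled activated than in resting B arrays and lower in labelled activated than in resting T arrays. Prc1, which bundles the microtubules of the central spindle, was at 9.17, 9.18 and 9.06 log2 in labelled activated B arrays, against 4.94, 5.18 and 5.55 log2 in labelled resting B arrays. It was at 5.19, 4.43 and 5.38 log2 in labelled activated T arrays, against 8.55, 8.57 and 8.45 log2 in labelled resting T arrays. Anln, the furrow scaffold, and Ect2, the activator of RhoA, differed by 3.41 and 3.28 log2, and by -2.86 and -3.05 log2. Racgap1, the partner of Kif23 in the centralspindlin complex, was at 9.70, 9.75 and 9.77 log2 in labelled activated B arrays, against 7.99, 7.96 and 8.03 log2 in labelled resting B arrays. It was at 6.12, 6.05 and 6.48 log2 in labelled activated T arrays, against 9.20, 9.31 and 8.996 log2 in labelled resting T arrays. The labelled resting B arrays thus held it at a level between the high groups and the labelled activated T arrays, with no overlap. Its differences were 1.75 ± 0.11 log2 (adjusted p = 2.38e-09) in the labelled B and -2.96 ± 0.11 log2 (adjusted p = 5.13e-12) in the labelled T comparison.

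Of the 7 genes listed under anaphase and cohesion, 6 followed the set. Cdc20, which activates the anaphase-promoting complex, was at 9.18, 9.02 and 9.23 log2 in labelled activated B arrays, against 6.47, 6.14 and 6.31 log2 in labelled resting B arrays. It was at 6.05, 5.99 and 6.31 log2 in labelled activated T arrays, against 8.34, 8.74 and 8.47 log2 in labelled resting T arrays. Ube2c, the ubiquitin-conjugating enzyme of the complex, differed by 2.14 and -1.71 log2, and Espl1, separase, by 2.82 and -2.39 log2. Sgo1, which shields cohesin at the centromere, Cdca5 (sororin, which keeps cohesin on DNA) and Cdca3 differed by 3.31 to 3.76 log2 and by -3.22 to -2.56 log2. Cdca3 is known as a trigger of mitotic entry and was only listed with this group.

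Pttg1, securin, the inhibitor of separase, was the exception. It was at 7.11, 7.21 and 7.20 log2 in labelled activated B arrays, against 7.25, 7.13 and 7.42 log2 in labelled resting B arrays. It was at 7.10, 6.91 and 6.98 log2 in labelled activated T arrays, against 7.06, 7.21 and 7.19 log2 in labelled resting T arrays. All 12 values lay above background, between 6.91 and 7.42 log2, and the groups overlapped in both comparisons. The differences of -0.09 ± 0.10 log2 (adjusted p = 0.527) and -0.16 ± 0.10 log2 (adjusted p = 0.259) did not pass the test. After centring on array medians, it was called higher in labelled activated B than in labelled activated T arrays (0.31 log2, adjusted p = 0.0201, against 0.18 log2, adjusted p = 0.174, as deposited). Its labelled activated T arrays lay below all labelled resting B arrays, by 0.27 log2 on average (adjusted p = 0.069). It was called lower there under 75th percentile centring, quantile normalization, both filters on dim genes and without replicate 2 of labelled resting B (adjusted p between 0.0291 and 0.042). Whether its probe set reads the Pttg1 transcript was not tested.

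The remaining 3 genes act on the chromosomes. Top2a, the topoisomerase that untangles sister chromatids, was at 10.99, 10.90 and 10.89 log2 in labelled activated B arrays, against 6.33, 6.78 and 7.02 log2 in labelled resting B arrays. It was at 6.12, 6.12 and 6.52 log2 in labelled activated T arrays, against 10.37, 10.47 and 10.62 log2 in labelled resting T arrays. Its differences of 4.22 ± 0.15 and -4.23 ± 0.15 log2 were 18.6-fold and 18.8-fold. The second probe set of Top2a was dim, with group means of 4.85 and 3.96 log2 in labelled activated and resting B arrays and of 3.91 and 4.39 log2 in labelled activated and resting T arrays. Mki67, the coat protein of mitotic chromosomes known as Ki-67, was at 10.57, 10.59 and 10.57 log2 in labelled activated B arrays, against 6.17, 6.51 and 6.995 log2 in labelled resting B arrays. It was at 5.80, 6.27 and 6.88 log2 in labelled activated T arrays, against 10.24, 10.22 and 10.09 log2 in labelled resting T arrays. The spread was wider in the low groups (SD 0.42 and 0.54 log2 in labelled resting B and activated T) than in the high ones (SD 0.01 and 0.08 log2 in labelled activated B and resting T). Cdca2 (Repo-Man, which brings a phosphatase to anaphase chromosomes) differed by 3.20 and -3.30 log2.

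**Figure D4:**
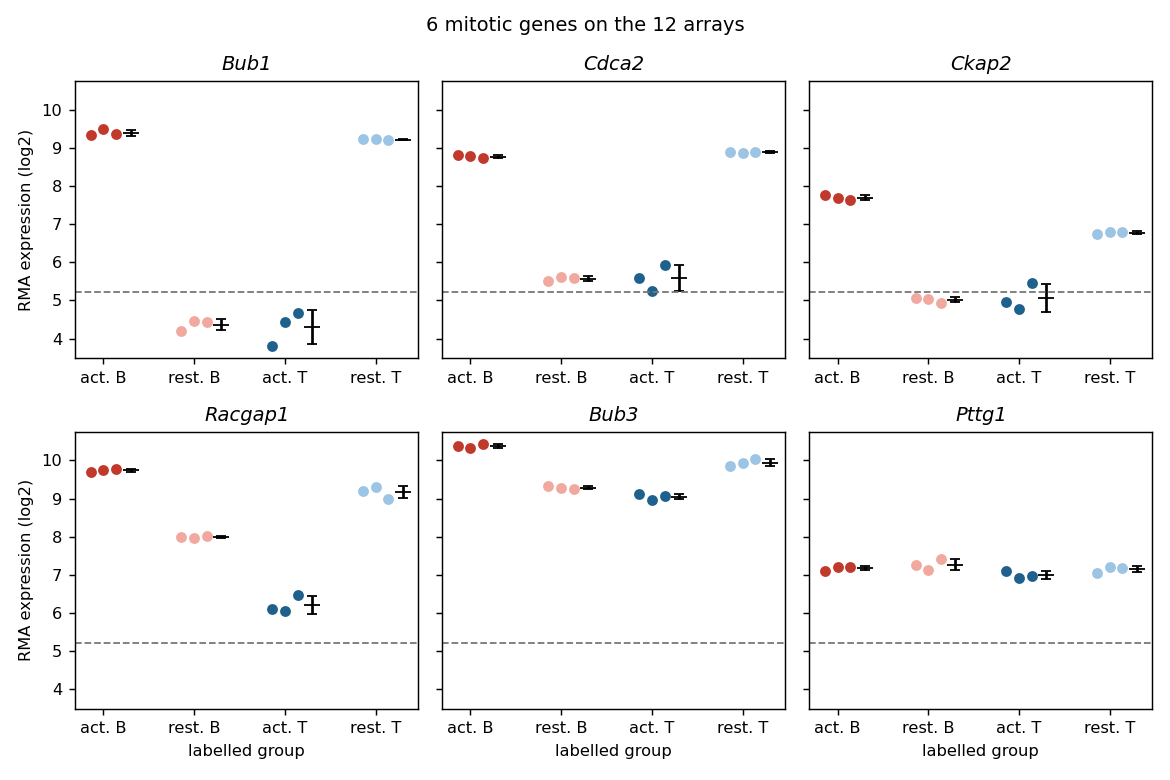
Log2 RMA expression of 6 genes on each of the 12 arrays (points), with the mean and SD of each labelled group of 3 (bars) and the background level of 5.21 log2 (dashed line). The low arrays of Bub1 lie under the dashed line, Bub3 has the smallest called differences, Racgap1 lies higher in labelled resting B than in labelled activated T arrays, and all 12 values of Pttg1 lie between 6.91 and 7.42 log2.

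The high groups were not level with each other. Between labelled activated B and labelled resting T arrays, 47 of 58 genes were higher and 0 lower, where 13% of all genes were called higher and 9.93% lower. The arrays did not overlap in 55 genes that were higher and 1 that was lower, where 18.9% of all genes were higher and 16.3% lower in this way. The median difference was 0.58 log2, against -0.01 over all genes, and no gene of the set was among the 100 genes with the largest difference. The largest difference was that of Ckap2, a microtubule binding protein of the spindle, at 7.76, 7.70 and 7.62 log2 in labelled activated B arrays, against 6.74, 6.79 and 6.81 log2 in labelled resting T arrays. It came to 0.92 ± 0.13 log2 (adjusted p = 5.52e-05). Cenpi followed with 0.91 ± 0.11 log2 (adjusted p = 5.39e-06), Birc5 with 0.89 ± 0.15 log2 (adjusted p = 0.000302) and Aurka, the kinase of the spindle poles, with 0.86 ± 0.12 log2 (adjusted p = 4.29e-05). All 4 chromosomal passenger genes and all 6 spindle assembly factors were called higher.

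Some of the most changed genes did not pass the test between the high groups. Bub1 differed by 0.18 ± 0.16 log2 (adjusted p = 0.514) between labelled activated B and resting T arrays and Mki67 by 0.40 ± 0.21 log2 (adjusted p = 0.23). The kinase Melk was at 8.38, 8.30 and 8.37 log2 in labelled activated B arrays, against 8.14, 8.34 and 8.37 log2 in labelled resting T arrays, and these arrays overlapped. Cdca2 was the only gene of the set with the higher mean in labelled resting T arrays, at 8.81, 8.78 and 8.73 log2 in labelled activated B arrays, against 8.90, 8.87 and 8.90 log2 in labelled resting T arrays. Its difference of -0.11 ± 0.13 log2 did not pass the test (adjusted p = 0.63). The other genes not called were Cenph, Ect2, Kif11, Kif20a, Kif4, Nuf2 and Pttg1. Of the genes not called, 7 were called higher under at least 1 alternative setting, namely Cenph, Ect2, Kif11, Kif20a, Kif4, Mki67 and Nuf2. With only the arrays compared, adjusted p was 0.00241 for Nuf2 and 0.00732 for Mki67 (limma). Of the 47 calls, 37 were made under every alternative setting. Aspm, Aurkb, Espl1, Kif18a, Plk1, Prc1, Top2a, Tpx2, Ube2c and Zwilch lost theirs on leaving out at least 1 array of these groups. On leaving out 1 array at a time, the number of calls lay between 39 (without replicate 1 of labelled activated B) and 53 (without replicate 6 of labelled activated T).

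Most genes of the set did not pass the test between the low groups. Between labelled activated T and labelled resting B arrays, 3 genes were higher, 5 lower and 50 not called, where 8.82% of all genes were called higher and 9.68% lower. The median difference was -0.06 log2, against 0.01 over all genes. Arrays did not overlap in 5 genes that were higher and 6 that were lower, where 15.8% of all genes were higher and 15.5% lower in this way. In each of these groups, 24 of the 58 genes had a mean under the background level, where differences are compressed, against 0 in each of the high groups.

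Racgap1 stood out among these comparisons. Its difference of -1.78 ± 0.11 log2 (adjusted p = 3.75e-09), 3.44-fold, between labelled activated T and resting B arrays was the one call of the 8 that was made under all alternative settings. The other called genes differed by less. Kif11 (-0.57 log2, adjusted p = 0.0236), Top2a (-0.46 log2, adjusted p = 0.0406), Plk1 (-0.40 log2, adjusted p = 0.0373) and Bub1b (-0.30 log2, adjusted p = 0.0431) were lower. Zwilch (0.50 log2, adjusted p = 0.0193), Spc25 (0.36 log2, adjusted p = 0.0201) and Aurkb (0.30 log2, adjusted p = 0.0306) were higher. Arrays overlapped for Kif11 and Top2a. The number called lower was 1 without replicate 4 or without replicate 5 of the labelled activated T arrays, 2 without replicate 2 or replicate 3 of the labelled resting B arrays (Pttg1 being newly called without replicate 2), and 3 without any 1 of the labelled activated B arrays. The number called higher was 1 without replicate 1 or 3 of labelled resting B or replicate 5 or 6 of labelled activated T arrays.

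**Figure D5:**
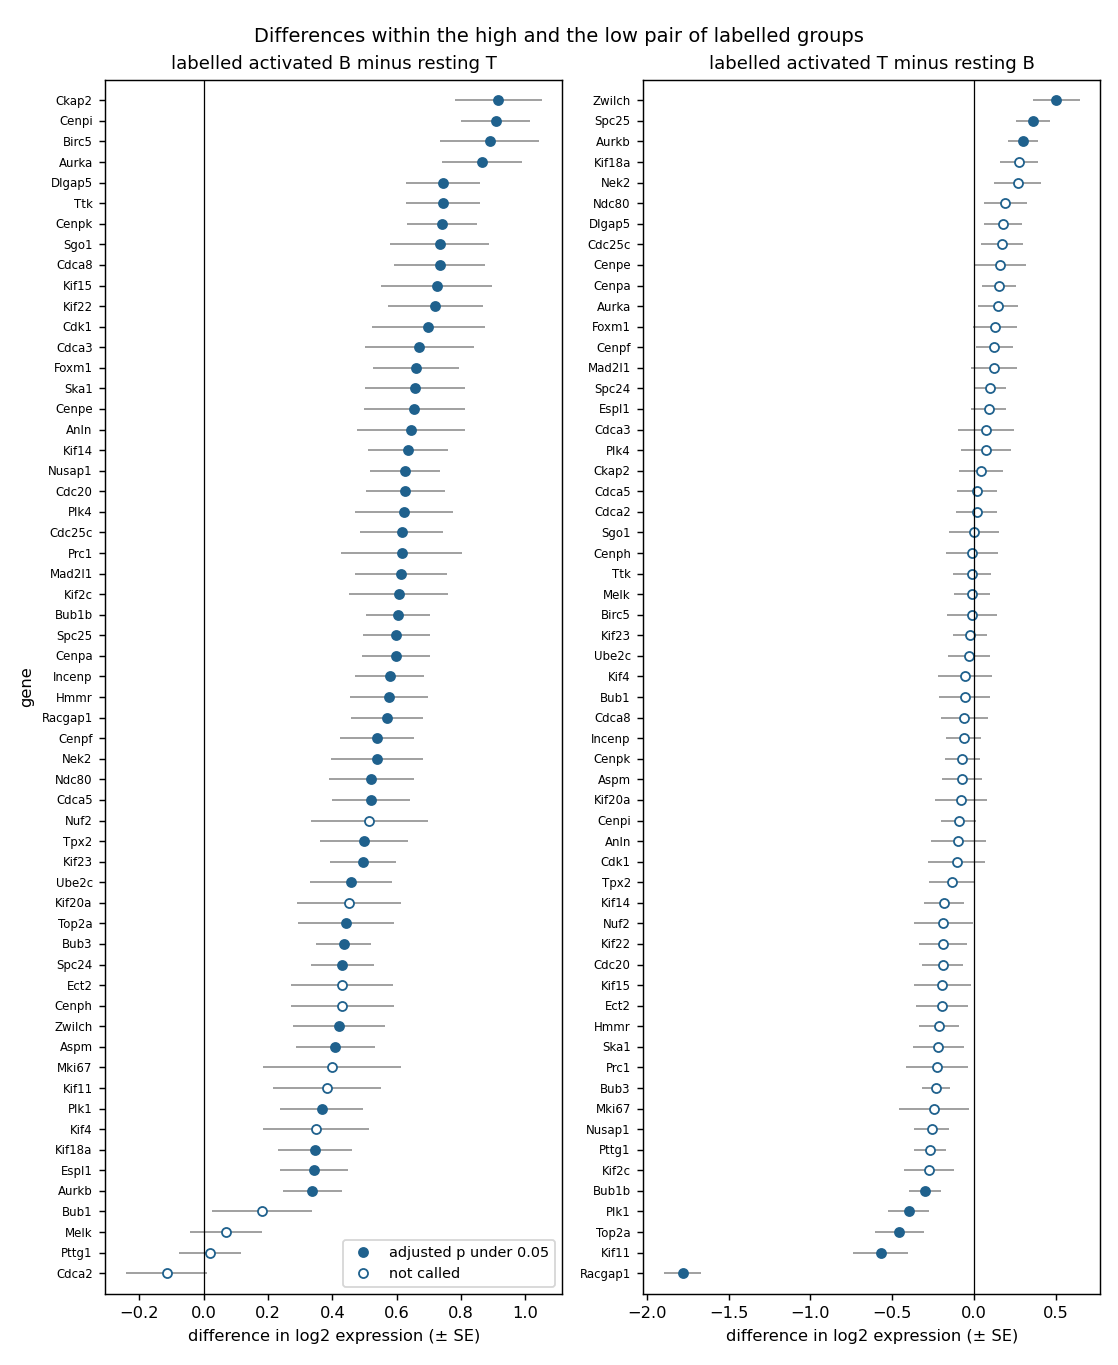
Differences in log2 expression (points, with the SE of the fit as bars) of the 58 genes between the high groups (left, labelled activated B minus resting T) and between the low groups (right, labelled activated T minus resting B), each sorted by size. Filled points had an adjusted p under 0.05. On the left 57 genes lie above 0 and Cdca2 below it, and on the right most genes lie near 0 and Racgap1 lies apart at -1.78 log2.

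In the order of the group means, 56 genes had labelled activated B first and labelled resting T next. Below these, 36 genes had resting B above activated T and 20 had them the other way round, and these neighbours did not pass the test in 50 of the 58 genes. Within groups, single arrays carried more of the set than others. In the high groups, replicate 1 of labelled activated B was the highest of its group in 34 of 58 genes. Replicates 4, 5 and 6 of labelled resting T were so in 7, 26 and 25. In the low groups, replicate 3 of the labelled resting B arrays was the highest of its group in 38 of 58 genes, and replicate 6 of the labelled activated T arrays in 43 of 58. The same arrays of the low groups were highest of their groups in the natural killer markers, with medians of 7.82 log2 (against 6.92 and 7.50 log2 in the others) and 6.13 log2 (against 5.37 and 5.49 log2). They were also highest in T cell markers (10.41 and 6.46 log2) and erythroid markers (5.90 and 5.56 log2). Replicate 6 of labelled activated T was highest of its group in plasma cell markers too (6.04 log2, against 5.91 and 5.88 log2). In myeloid markers it was at 6.71 log2, as was replicate 4, against 6.44 log2 in replicate 5. Myeloid, B cell and plasma cell markers were highest in replicate 2 of labelled resting B (7.54, 8.33 and 6.87 log2). Among labelled activated T arrays, B cell markers were highest in replicate 4 and granulocyte markers in replicate 5. Mpo, a granulocyte precursor gene, was at 5.33, 5.76 and 7.11 log2 in the labelled resting B arrays. The medians of the 5 granulocyte markers there were 4.45, 5.04 and 5.18 log2, all under background. The part of these cells in the values was not tested. Leaving out replicate 3 of labelled resting B or replicate 6 of labelled activated T arrays changed no call in the labelled activated against resting comparisons.

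Other genes of the mitotic machinery, from lists chosen with earlier results of these data known, followed less closely. The shares of all genes called were 19.7% higher and 16.7% lower in the labelled B comparison, and 15.9% and 17.8% in the labelled T comparison. Of 29 other centromere and kinetochore genes, 24 were higher and 0 lower in labelled activated than in resting B arrays (median 1.38 log2), and 0 were higher and 22 lower in labelled activated than in resting T arrays (median -1.17 log2). Ska3, the partner of Ska1, differed by 3.96 and -3.44 log2, Kntc1, which acts with Zwilch, by 3.75 and -3.21 log2, and Knl1, the scaffold for Bub1 and Bub3, by 3.74 and -3.02 log2. Of 32 other spindle and centrosome genes, 23 were higher and 3 lower in the labelled B comparison (median 1.51 log2), and 5 were higher and 19 lower in the labelled T comparison (median -0.94 log2). Cep55, which acts at the last cut of cytokinesis, differed by 4.22 and -3.81 log2. Tacc1, a centrosomal protein, and Numa1, which gathers microtubules at the spindle poles, ran the other way, by -1.18 and -0.57 log2 in the labelled B comparison and by 0.42 and 0.49 log2 in the labelled T comparison.

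The anaphase-promoting complex, the target of the checkpoint, differed less. Of its 16 subunits and regulators, 12 were higher and 0 lower in labelled activated than in resting B arrays, with a median of 0.50 log2, and 0 were higher and 12 lower in labelled activated than in resting T arrays, with a median of -0.38 log2. Fbxo5 (Emi1, its inhibitor) led with 2.29 and -1.69 log2, and Ube2s, its chain-extending enzyme, followed with 1.48 and -1.15 log2. Of 14 kinesins of transport outside mitosis, 3 were higher and 5 lower in the labelled B comparison (median 0.09 log2), and 5 were higher and 2 lower in the labelled T comparison (median 0.00 log2). These shares may be read beside those of all genes, 19.7% and 16.7% in the labelled B and 15.9% and 17.8% in the labelled T comparison. Kif3a was higher by 2.50 log2 and Kif1b lower by 1.41 log2 in labelled activated than in resting B arrays.

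Many of the transcription factors and most of the replication genes ahead of mitosis differed in the same arrays. Over all genes, 19.7% were called higher and 16.7% lower in the labelled B comparison, and 15.9% higher and 17.8% lower in the labelled T comparison. Of 15 genes of the MuvB complex and its partners, which act on the late cell cycle promoters, 10 were higher and 1 lower in the labelled B comparison (median 0.56 log2), and 3 were higher and 8 lower in the labelled T comparison (median -0.27 log2). Mybl2, the B-Myb factor that joins MuvB for late genes, differed by 2.45 ± 0.15 log2 (adjusted p = 7.96e-10) and -2.76 ± 0.15 log2 (adjusted p = 1.89e-10). E2f5, an E2F factor of the repressor class, differed by -0.44 and 0.51 log2. All 14 genes of replication licensing were higher in labelled activated than in resting B arrays (median 2.32 log2), and 13 of 14 were lower in labelled activated than in resting T arrays (median -2.03 log2). Mcm6, a subunit of the replicative helicase, differed by -2.82 log2 in the labelled T comparison. In the high groups, labelled activated B minus resting T, 9 of these 14 genes were higher and 0 lower, with a median of 0.47 log2. There, 13% of all genes were called higher and 9.93% lower.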

How the data were processed

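The authors deposited log2 expression values, made with RMA per the submitters' processing notes (version not given in the sources used here), 1 per probe set and array. Of 34760 probe sets, 21640 had 1 gene symbol, 1321 several (not used) and 11799 none. For 954 genes with several probe sets, the one with the highest mean over 12 arrays was used. Groups came from the labels.

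Each gene was fitted with limma 3.58.1 (R 4.3.3; lmFit, eBayes) with 1 mean per labelled group over all 12 arrays (residual df 8, prior df 7.8). P-values were adjusted by Benjamini-Hochberg over 19937 genes with a threshold of 0.05, in each of 6 comparisons of 2 groups and the interaction. Other steps ran in Python 3.11.15 with numpy 2.4.6 and pandas 2.3.3, and plots in matplotlib 3.10.9. The fit was tested on simulated data. In the comparison activated B minus resting B (19937 genes), it called 46% of 50 genes with a set change of 0.5 log2, 94% of 100 with 1 log2 and 100% of 50 with 2 log2, and 5 of its 172 calls were false.

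The genes and lists were chosen with earlier results of these data known. Any of the 58 genes may be named. Of every other list, the rule allows the 3 highest and the 3 lowest differences among called genes whose arrays did not overlap, and marker genes are also named for the check of the labels. Promoter windows are those of RefSeq (GRCm38.p6). No array was a copy of another (at most 0.069% identical values).

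Replicate numbers are shared by the labelled B groups (1 to 3) and by the labelled T groups (4 to 6). Over 12170 genes above background, deviations from the group means had, for arrays of the same number, r of -0.06, 0.06 and 0.25 (labelled B) and of 0.22, 0.16 and 0.23 (labelled T). Without 4 sex-linked genes, these were -0.12, -0.02 and 0.00 (labelled B) and 0.02, 0.09 and 0.19 (labelled T). The labels do not say what a number marks, and the numbers were not taken to pair the arrays. Main results come from the fit with no block. The alternatives left out each array in turn, added the block or array weights, fitted only the arrays compared, used a robust variance trend, averaged the probe sets of a gene, removed dim genes, or rescaled the arrays (median, 75th percentile, quantiles).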

Additional observations from a re-analysis of the deposited data

Results flagged for a closer look

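The difference between the labels activated and resting itself differed between the labelled B and the labelled T arrays in 57 of the 58 genes by the test of that contrast (limma interaction, adjusted p under 0.05, where 21.9% of all genes were called positive). The smallest called difference was 1.97 log2 (Bub3) and the largest 9.95 log2 (Bub1, whose 6 low arrays lay under background). As the lineage genes go against the labels, the sign and the size of this contrast depend on the labels, and whether labels were exchanged was not tested. In every one of these 57 genes the 3 labelled activated B arrays lay above the 3 labelled resting B arrays, and the 3 labelled activated T arrays lay below the 3 labelled resting T arrays. With 3 arrays per group, single arrays were not tested as outliers.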

How the results depend on the processing

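The counts of 57 genes called one way in labelled activated minus resting B, activated minus resting T, activated B minus activated T, resting B minus resting T and the interaction were the same under every alternative run, except that centring on array medians added Pttg1 in activated B minus activated T (58 genes). With the replicate number as a block, 57 genes were higher in labelled activated than in resting B arrays, 57 were lower in labelled activated than in resting T arrays and 57 had a positive interaction, and the block changed no call of the 58 genes. It could not be fitted between labelled B and T arrays, which share no numbers. Centring on array medians moved the median of the 58 genes to 3.53 log2 in activated B minus activated T and to 6.28 log2 in the interaction. It also moved the median of all genes to 0.10 and 0.18 log2 in these, against -0.03 and -0.03, and the share of higher among all calls to 66.6% (activated minus resting B), 33.9% (activated minus resting T), 68.5% (activated B minus activated T) and 67.6% (interaction), against 54.1%, 47.3%, 53.5% and 51.2%. In activated T minus resting B, the genes called lower numbered 1 with only the arrays compared and 8 with array weights. Leaving out each array gave 1 to 3 genes higher and 1 to 7 lower there, with a median between -0.15 and 0.03 log2, and 39 to 53 genes higher in activated B minus resting T, with a median between 0.53 and 0.61 log2. The causes were not tested. In the other comparisons the medians lay between 3.29 and 3.43, -2.82 and -2.70, 3.36 and 3.48, and -2.83 and -2.67 log2, and for the interaction between 6.02 and 6.16 log2. Means under 5.21 log2, which 24 genes had in each low group, limit the size of a difference that the arrays can show, and RMA would hide a shift of most genes in 1 direction.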
